A study of Mus musculus with 20 samples.

Results

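The comparison described here set 8 HFepa mice against 6 Ref mice, 14 of the 20 arrays in the series. All were male F3 mice of the C57BL/6J strain whose lineages had been bred for generations on a growing diet with an oil added at 1% by weight. The HFepa lineage (titles "HFD O3") received an EPA-rich fish oil and the mice were then fed a high-fat, high-sucrose diet with 45% of its energy from fat for 17 weeks. The Ref mice (titles "STD Cont") came from the control lineage, which received high-oleic sunflower oil, and were fed a low-fat diet with 10% of its energy from fat for the same 17 weeks. The other 6 arrays are HFoleic mice ("HFD Cont"), of the control lineage and on the high-fat diet, and their values are given beside the HFepa values only for orientation. The question was how far the tissue of challenged EPA-lineage mice departed from the unchallenged reference. Diet and lineage differ together between HFepa and Ref, and there is no group of EPA-lineage mice on the low-fat diet, so an effect of the fat and one of the lineage cannot be told apart in this comparison. Each array holds the RNA of 1 mouse, and only RNA of adequate integrity was hybridized.

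White fat around the epididymis stores triglyceride in adipocytes and releases fatty acids on demand. It also holds progenitors, vessels, mesothelium and immune cells, and on a high-fat diet it is known for growing adipocytes, remodelled collagen and macrophages that gather around dying fat cells and take up their lipid. EPA is a long-chain n-3 fatty acid of fish oil, and oleic acid is the main fatty acid of the oil used as the control.

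The tissue label was borne out by the markers of fat. All 15 adipocyte genes of the list were measured, and Adipoq, which encodes adiponectin, had a lowest, median and highest log2 intensity of 17.99, 18.15 and 18.21 in Ref mice and of 17.75, 18.08 and 18.24 in HFepa mice, a difference of -0.07 (adjusted p = 0.615). None of the 15 adipocyte genes passed the test, and their median log2 fold change was -0.16. Signs of neighbouring tissue varied by mouse. Adam7, a gene of the epididymis, was at 10.59 in Ref mouse 3, 8.45 in Ref mouse 6 and 8.62 in HFepa mouse 2, and at 6.05 or less in each of the other mice of these groups. 7 of 16 epididymal genes were measured above background on enough arrays, with a median change of 0.21 and no member past the threshold. That median was -0.07, 0.68 and -0.04 on the 3 slides, and over 35 alternatives it ran from -0.052 to 0.30 and changed sign in 2. Of the 7 estimates 5 were positive and 2 negative, whereas Adam7 itself had -1.18 (limma adjusted p = 0.401). The list's mean log2 intensity ran through 6.76, 7.06 and 7.52 in Ref mice (lowest, median and highest). In HFepa mice it ran through 6.59, 6.80 and 9.035. Ucp1, the uncoupling protein of brown fat, was at 12.40 in HFepa mouse 7 and at 6.23 or less in the other 13 mice. The part of these tissue traces in the results was not tested, beyond the counts without the Adam7-rich mice given below.

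Across 25587 genes, each represented by its brightest probe, 265 were higher and 364 lower in HFepa than in Ref mice at an adjusted p below 0.05 (limma, Benjamini–Hochberg over all 39390 probes). That is 1.04% of the genes called higher and 1.42% called lower, and these shares are the background for every list below. The same low-fat Ref mice also serve the HFoleic vs. Ref comparison, in which 15.2% of the genes were called higher and 16.7% lower. The median absolute log2 fold change of the called genes was 0.45 in both comparisons. Each median is over the genes that passed in that comparison, so the 2 values do not compare the size of the responses. Of the 629 genes called in HFepa, 42 changed by 2-fold or more, 29 of them upward. Of the called genes, 206 higher and 180 lower were protein-coding, among 16316 protein-coding genes tested. A further 17 higher and 53 lower were long noncoding RNAs, and 164 called genes had no RefSeq symbol. The long noncoding RNAs tested were not counted, so their split has no background share beside it. In probes, the count was 892, and 8152 probes were below an unadjusted p of 0.05. The probe count moved widely with single mice. It was 166, 248, 255 and 131 without Ref mouse 3, 4, 5 or 6 and 1735 without Ref mouse 7. It was 328, 511, 142 and 446 without HFepa mouse 1, 5, 6 or 7 and 2518 without HFepa mouse 3. It was 26 without HFepa mice 1 and 6 together and 0 without the Adam7-rich Ref mice 3 and 6 and HFepa mouse 2, in which case 6397 probes had an unadjusted limma p below 0.05.

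In some called genes no HFepa mouse overlapped a Ref mouse. Genes both called and free of overlap made up 0.7% of the genes, and among the protein-coding ones 44 were higher and 56 lower in HFepa. Dock8, an exchange factor that activates the small GTPase Cdc42 and is best known in leukocytes, showed the largest rise among them. Absence of overlap did not make a call stable: of 34 alternative settings, Dock8 lost its call in 1, but Kiss1r in 24, Gm11837 in 20, Echdc3 in 19 and Ift81 in 19. The lowest, median and highest log2 intensities of Dock8 were 6.40, 7.37 and 8.08 in Ref mice and 8.27, 9.19 and 9.57 in HFepa mice. The difference was 1.82 ± 0.24 (SE, adjusted p = 0.00326), a 3.53-fold rise, beside 2.13 in HFoleic vs. Ref. The 3 dimmer Dock8 probes had smaller differences, 0.85 and 0.79, which passed, and 0.35, which did not (adjusted p = 0.0705). The brightest probe reads chr19:25275989-25276048 (mm9) of the transcript NM_028785.

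Map1a, which encodes a microtubule-associated protein studied mainly in neurons, ranked next. It ran through 6.30, 6.65 and 7.04 in Ref and 7.11, 8.14 and 8.51 in HFepa mice, a difference of 1.34 ± 0.20 (SE, adjusted p = 0.0064) beside 1.77 in HFoleic vs. Ref. HFepa mouse 3 was the lowest of its group at 7.11, just above the highest Ref mouse. Optc, a small leucine-rich proteoglycan of connective tissue, went from 6.76, 7.20 and 7.64 to 7.76, 8.45 and 9.35, a difference of 1.27 ± 0.24 (SE, adjusted p = 0.0158). Adh4, an alcohol dehydrogenase that also acts on retinol, went from 6.90, 7.30 and 7.67 to 7.90, 8.49 and 8.85, a difference of 1.15 ± 0.18 (SE, adjusted p = 0.00947). For these 4 genes the values in HFoleic vs. Ref were 2.13, 1.77, 1.23 and 1.35, and the direct HFepa vs. HFoleic contrast gave adjusted p values of 0.476, 0.227, 0.956 and 0.542.

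Rises of less than 2-fold came next. Eda2r, a receptor of the tumour necrosis factor family, rose by 0.79 ± 0.11 (SE, adjusted p = 0.00326), with HFepa mice at 6.28, 6.74 and 6.95 and Ref mice at 5.50, 5.94 and 6.15. Over the alternatives the Eda2r estimate ran from 0.56 to 1.34. Igfbp5, a binding protein that holds insulin-like growth factors in the matrix, rose by 0.71 ± 0.10 (SE, adjusted p = 0.00388), from 11.19, 11.37 and 11.63 to 11.68, 12.15 and 12.33. Abat, which breaks down the transmitter GABA, rose by 0.80 ± 0.14 (SE, adjusted p = 0.0146), from 12.19, 12.84 and 13.03 to 13.19, 13.66 and 13.94. Each of the 3 separated the groups fully, but of 3 dimmer probes of Abat 1 passed, at 0.46, and 2 did not, at 0.12 and 0.31. Svep1, a large adhesion protein of the extracellular space, rose by 0.80 ± 0.15 (SE, adjusted p = 0.0158), while 2 other probes of it gave 0.40 and 0.58 and did not pass. Mfge8, which bridges dying cells to phagocytes, rose by 0.61 ± 0.15 (SE, adjusted p = 0.0394) from an already high level, with 16.54, 16.63 and 16.97 in Ref and 17.05, 17.19 and 17.80 in HFepa mice.

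Atp2a3 and Kiss1r, also without overlap, had larger estimates in HFepa than in HFoleic. Atp2a3, a calcium pump of the endoplasmic reticulum, went from 9.65, 10.31 and 10.44 in Ref to 10.74, 10.89 and 11.37 in HFepa mice, a difference of 0.70 ± 0.11 (SE, adjusted p = 0.00947) beside 0.35 (adjusted p = 0.027) in HFoleic. Kiss1r, the kisspeptin receptor, rose by 0.81 ± 0.21 (SE, adjusted p = 0.0492) in HFepa beside 0.36 (adjusted p = 0.241) in HFoleic, with the lowest HFepa mouse and the highest Ref mouse both at 9.24. The differences between the high-fat groups themselves, 0.35 for Atp2a3 and 0.45 for Kiss1r, did not pass, with adjusted p values of 0.129 and 0.239.

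**Figure D1:**
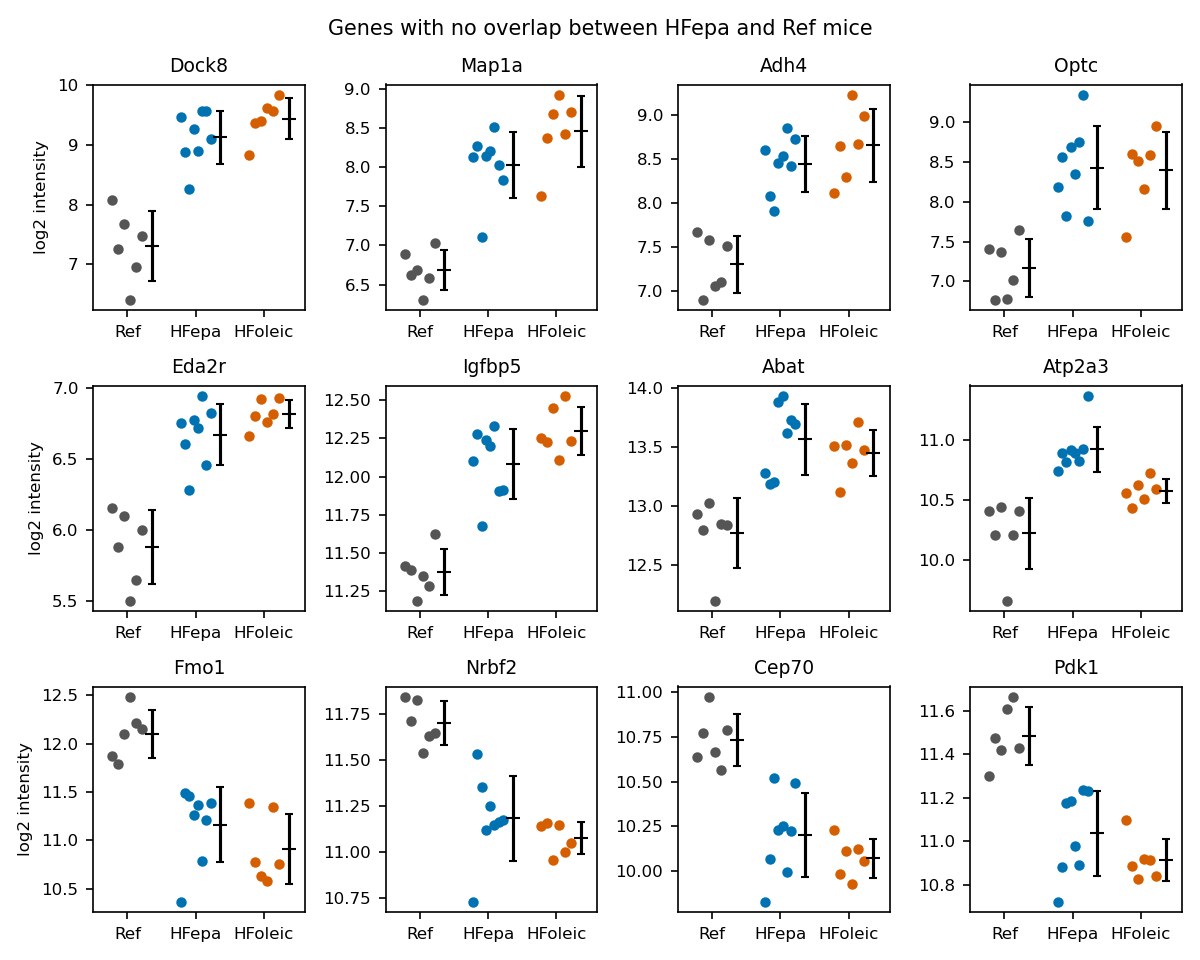
Log2 intensity of 12 genes in each mouse of the Ref, HFepa and HFoleic groups; each point is 1 mouse and the black mark gives the group mean with its SD. In each panel the 8 HFepa mice lie on one side of the 6 Ref mice, from Dock8 (median 7.37 in Ref and 9.19 in HFepa) to Pdk1 (11.45 and 11.08).

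Among called protein-coding genes, the largest fall without overlap was that of Gm11837, listed as protein-coding with no settled name. It fell from 9.94, 10.12 and 10.40 in Ref to 8.12, 9.37 and 9.67 in HFepa mice, a difference of -1.001 ± 0.26 (SE, adjusted p = 0.0448). Tafa5, which encodes a secreted chemokine-like protein, fell from 8.76, 8.96 and 9.32 to 7.11, 8.11 and 8.71, a difference of -0.98 ± 0.23 (SE, adjusted p = 0.0321). Fmo1, a flavin-containing monooxygenase, fell from 11.79, 12.12 and 12.49 to 10.36, 11.31 and 11.49, a difference of -0.94 ± 0.18 (SE, adjusted p = 0.0158). HFepa mice 1 and 6 held the lowest Fmo1 values of their group, at 10.36 and 10.79. Sugct, a mitochondrial enzyme that forms glutaryl-CoA, fell by 0.69 ± 0.14 (SE, adjusted p = 0.0247), and Echdc3, an enoyl-CoA hydratase-like protein, fell by 0.61 ± 0.15 (SE, adjusted p = 0.0423). The corresponding values in HFoleic vs. Ref were -1.82 for Gm11837, -1.58 for Tafa5, -1.19 for Fmo1, -1.004 for Sugct and -0.78 for Echdc3.

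The next 7 falls of this kind by size were between -0.59 and -0.51. Ift81, a subunit of the particle that carries cargo along cilia, and Cep70, a centrosomal protein, changed by -0.59 (adjusted p = 0.0436) and -0.53 (adjusted p = 0.0148). Skil, which restrains SMAD signalling downstream of TGF-beta, changed by -0.55 (adjusted p = 0.0244), Immp2l, a peptidase of the inner mitochondrial membrane, by -0.55 (adjusted p = 0.0273), and Nrbf2, a regulator of the autophagy kinase complex, by -0.51 (adjusted p = 0.0146). Fbxo44, a ubiquitin ligase adaptor, changed by -0.57 (adjusted p = 0.0295). Lrp3, of the LDL receptor family, changed by -0.54 (adjusted p = 0.029) in HFepa and by -0.35 (adjusted p = 0.0438) in HFoleic.

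Several larger called changes had overlapping groups. Cyp2f2, a cytochrome P450, went from 10.56, 11.08 and 14.02 in Ref to 7.77, 9.36 and 10.61 in HFepa mice, a difference of -2.32 ± 0.57 (SE, adjusted p = 0.0386), and Ref mouse 5 stood well above the other Ref mice at 14.02. Lama1, a laminin chain of basement membranes, went from 8.56, 9.09 and 9.53 to 5.13, 7.31 and 8.74, a difference of -1.99 ± 0.52 (SE, adjusted p = 0.0471), with 6 of the 8 HFepa mice well above background. The lowest Lama1 values, 5.13 and 5.28, were in HFepa mice 1 and 6; without them the difference was -1.36, and of 34 alternative settings the call was lost in 24. The choline transporter Slc5a7, the sodium pump subunit Atp1a4 and the potassium channel Kcnj14 were named after their values were seen. Slc5a7 rose by 2.31 ± 0.53 (SE, adjusted p = 0.0314), Atp1a4 by 2.17 ± 0.53 (SE, adjusted p = 0.039) and Kcnj14 by 2.04 ± 0.52 (SE, adjusted p = 0.0436), beside 3.50, 3.44 and 3.49 in HFoleic vs. Ref.

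Heat-shock proteins are chaperones that refold or hold unfolded proteins, and their genes are known for sharing an inducible promoter element. In the list of 24 such genes, 4 rose in HFepa, 16.7% beside the 1.04% of all genes, and none fell. The median change over the 24 was 0.16, with 0.15, 0.05 and 0.26 on the 3 slides and 0.077 to 0.19 over the alternatives. Of 34 alternative settings, the call was lost in 27 for Cryab, 12 for Hsph1, 8 for Hspa8 and 3 for Dnaja1. In HFoleic vs. Ref, with the same Ref mice, 3 rose and 1 fell, and the median was 0.01. The promoter stretches of the 2 risen genes that the RefSeq promoter table holds are shown because both carry letters of the element. Capitals mark GAANNTTC or TTCNNGAA, each its own reverse complement, which were searched for in the 250 bases before the start. The stretches are Hsph1 at chr5:149636337-149636456 (minus strand) and Dnaja1 at chr4:40722284-40722403 (plus strand), both in GRCm38.p6:
Hsph1: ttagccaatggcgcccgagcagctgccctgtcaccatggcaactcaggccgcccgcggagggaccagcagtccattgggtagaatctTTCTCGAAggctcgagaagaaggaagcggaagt
Dnaja1: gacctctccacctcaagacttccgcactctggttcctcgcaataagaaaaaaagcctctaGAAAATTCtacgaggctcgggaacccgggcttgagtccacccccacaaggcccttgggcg

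The match begins 33 bases before the start in Hsph1 and 124 bases before it in Dnaja1. Of all 32851 promoters in that table, 12.8% hold either motif in the same window, and of the 17 heat-shock genes in it, 9 do. The percentage counts promoters whereas the heat-shock figure counts genes, so they are in unlike units. An excess of the motif in heat-shock genes was not tested. These matches are a description chosen after the values were seen.

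Hsph1, a large co-chaperone of Hsp70, went from 10.46, 10.71 and 11.15 in Ref to 11.11, 11.52 and 12.07 in HFepa mice, a difference of 0.78 ± 0.18 (SE, adjusted p = 0.0345). Only HFepa mouse 2, at 11.11, lay below the highest Ref mouse, at 11.15. Dnaja1, a J-domain partner of Hsp70, went from 13.79, 13.94 and 14.10 to 14.04, 14.36 and 14.54, a difference of 0.38 ± 0.07 (SE, adjusted p = 0.0158). In HFoleic mice the Dnaja1 difference from Ref was 0.15 (adjusted p = 0.147), and the direct contrast of 0.23 between HFepa and HFoleic did not pass (adjusted p = 0.126). Hspa8, the constitutive Hsp70, separated the groups completely, at 14.73, 14.81 and 14.91 in Ref and 14.98, 15.16 and 15.38 in HFepa mice, a difference of 0.35 ± 0.07 (SE, adjusted p = 0.0239). Cryab, the small heat-shock protein alpha-B crystallin, rose by 0.73 ± 0.19 (SE, adjusted p = 0.0485), and HFepa mouse 3, at 13.21, lay far below the other 7 HFepa mice, which began at 14.11. Of 2 dimmer Hsph1 probes 1 passed, at 0.81, and 1 did not, at 0.25, and 2 dimmer Dnaja1 probes did not, at 0.19 and 0.06. All 3 other Hspa8 probes passed, at 0.38, 0.41 and 0.42. The inducible Hsp70 genes Hspa1a and Hspa1b, near-identical copies whose probes may read each other, had differences of 0.43 (adjusted p = 0.277) and 0.36 (adjusted p = 0.296), and their highest values, 11.03 and 10.89, were both in HFepa mouse 3. Dnajb1, another J-domain partner, had a difference of 0.26 (adjusted p = 0.166) in HFepa and -0.01 (adjusted p = 0.944) in HFoleic. Cryab, Hsph1 and Hspa8 also rose in HFoleic vs. Ref, by 0.996, 0.64 and 0.27 (limma adjusted p = 0.00165, 0.0174 and 0.0132).

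**Figure D2:**
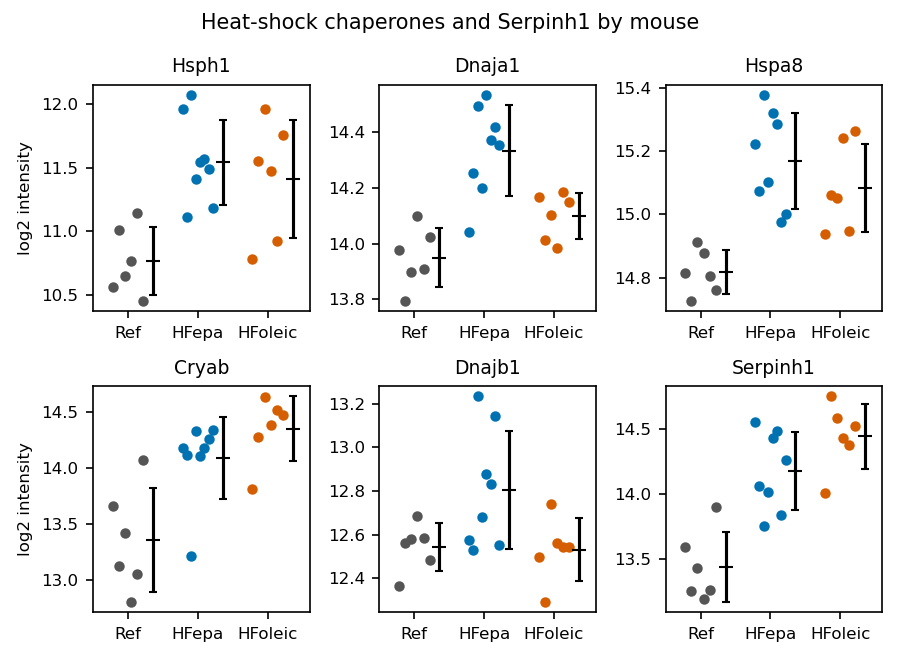
Log2 intensity of 5 heat-shock genes and of Serpinh1, the collagen chaperone, in each Ref, HFepa and HFoleic mouse, with group means and SD in black. Hspa8 separated HFepa from Ref mice (14.91 at most in Ref, 14.98 at least in HFepa), and Dnajb1 overlapped in all 3 groups.

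Among extracellular matrix genes, calls upward outnumbered those downward. Of 46 matrix proteins, 5 rose (10.9%, against 1.04%) and 1, Lama1, fell, a call lost in 24 of 34 alternative settings. The median was 0.19, with 0.01, 0.27 and 0.17 on the 3 slides and 0.10 to 0.24 over the alternatives. In HFoleic vs. Ref 19 matrix proteins rose and 5 fell, with a median of 0.27. Crtac1, a cartilage-associated glycoprotein, rose by 1.20 ± 0.22 (SE, adjusted p = 0.0158), Tnc, the stress-induced glycoprotein tenascin C, by 0.79 ± 0.16 (SE, adjusted p = 0.0239), and Prelp, a proteoglycan that anchors basement membrane to collagen, by 0.63 ± 0.15 (SE, adjusted p = 0.0391), a call lost in 19 of the 34. Sparc, a collagen-binding protein, rose by 0.21 ± 0.05 (SE, adjusted p = 0.046), and Optc, given above, is the fifth. Of 46 matrix enzymes, 3 rose and none fell, and each of the 3 acts on collagen before or during secretion. Serpinh1, the collagen chaperone of the endoplasmic reticulum, rose by 0.74 ± 0.14 (SE, adjusted p = 0.0182), with 13.20, 13.34 and 13.90 in Ref and 13.76, 14.16 and 14.55 in HFepa mice. P4ha1, a prolyl hydroxylase, rose by 0.40 ± 0.09 (SE, adjusted p = 0.0303), and Plod2, a lysyl hydroxylase, by 0.36 ± 0.07 (SE, adjusted p = 0.0213). The values in HFoleic vs. Ref were 1.00 for Serpinh1, 0.39 for P4ha1 and 0.30 for Plod2.

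Of 27 collagen chains, 1 passed, and 22 of the 27 had a positive estimate, with a median of 0.33. Col6a1, a chain of the microfibrillar collagen of fat, rose by 0.96 ± 0.24 (SE, adjusted p = 0.0394), its groups overlapping at 13.24, 13.81 and 14.78 in Ref and 13.89, 14.78 and 15.65 in HFepa mice. The Col6a1 call was lost in 17 of 34 alternative settings. Its partner chain Col6a3 missed the threshold narrowly at 0.72 (adjusted p = 0.0516), and the fibrillar chain Col1a1 had 0.76 (adjusted p = 0.0665). In HFoleic vs. Ref 14 chains rose and the median was 0.65.

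Genes tied to fat expansion and imprinting gave 3 rises and no fall among 24. Sfrp5, a secreted Wnt antagonist made by adipocytes, rose by 1.52 ± 0.34 (SE, adjusted p = 0.029) in HFepa and by 1.60 in HFoleic. HFepa mouse 3, at 14.43, lay below the highest Ref mouse, and the other 7 HFepa mice began at 15.60. Peg10, a paternally expressed gene, rose by 0.56 ± 0.14 (SE, adjusted p = 0.0457), a call lost in 20 of 34 alternative settings, and Cavin1, which coats caveolae, rose by 0.31 ± 0.07 (SE, adjusted p = 0.027). Over the alternatives the Peg10 estimate ran from 0.43 to 1.15. Mest, another imprinted gene that marks expanding fat, had 0.89 (adjusted p = 0.0805), and Bmp3 and Npr3 had 0.89 and 0.54 without passing. Leptin (Lep), the hormone that reports fat mass, had 0.69 (adjusted p = 0.0552) in HFepa beside 1.13 (adjusted p = 0.000741) in HFoleic.

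The macrophage lists had raised medians in HFepa, and only 1 of their genes passed. Of 18 lipid-associated macrophage genes, Fabp5, a fatty acid binding protein that adipocytes and endothelium also make, rose by 0.75 ± 0.18 (SE, adjusted p = 0.0385), while the median over the list was 1.06. In HFoleic vs. Ref 14 of the 18 rose, with a median of 2.14. The mean log2 intensity of the list had a lowest, median and highest value of 11.46, 11.71 and 12.07 in Ref mice and 11.75, 12.52 and 14.58 in HFepa mice. HFepa mouse 1, at 14.58, lay above the highest HFoleic mouse (14.40) and HFepa mouse 6, at 14.11, within the HFoleic range, whereas the other 6 HFepa mice lay between 11.75 and 12.91, below the lowest HFoleic mouse (13.10). Gpnmb, a glycoprotein of lipid-laden macrophages, was at 14.61 in HFepa mouse 1 and 13.84 in mouse 6 and between 8.36 and 10.97 in the other 6; its difference was 2.52 (adjusted p = 0.0843). Trem2, the lipid-sensing receptor, reached 15.15 in HFepa mouse 1 and had a difference of 2.10 (adjusted p = 0.1). Without mice 1 and 6 the list's median change fell to 0.49. In bulk tissue, fewer cells of a type and less RNA per cell cannot be told apart.

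HFepa mice 1 and 6 also had the highest means of the general macrophage, MHC class II and lysosome lists among these 14 mice. Of 20 general macrophage genes none passed in HFepa, with a median of 0.34, beside 14 higher and 1 lower and a median of 0.83 in HFoleic. Adgre1, a macrophage surface receptor, had 1.01 (adjusted p = 0.167), and Cd68 had 1.20 (adjusted p = 0.146). Timd4, a marker of resident macrophages, and Cd14, the lipopolysaccharide co-receptor, had negative estimates of -0.49 (adjusted p = 0.0807) and -0.55 (adjusted p = 0.0688). The 12 MHC class II genes had a median of 0.54 with none called, beside 1.09 and 9 rises in HFoleic; the 33 lysosomal genes had 0.12 with none called, beside 0.35 and 20 rises. Without HFepa mice 1 and 6 the medians in HFepa were 0.13 for the macrophage, 0.23 for the MHC class II and 0.067 for the lysosomal genes. Among 33 chemokines and receptors, Cxcr4, the receptor of Cxcl12, rose by 0.98 ± 0.24 (SE, adjusted p = 0.0363), and Ccl2, the monocyte attractant, had 1.11 (adjusted p = 0.0875). No gene passed at its brightest probe among 21 T cell, 9 mast cell, 10 B cell, 7 neutrophil, 28 cytokine and inflammasome or 23 complement genes. A dimmer probe of the complement regulator Cd59a passed at 0.47 (limma adjusted p = 0.0408), beside 0.41 (adjusted p = 0.0591) at its brightest.

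The same mice stood at the end of their group in many of the called genes. HFepa mice 1 and 6 held the 2 highest HFepa values of Acsl5, Col6a1, Cxcr4, Eif2ak3, Fabp5, Mfge8, Pfkfb4, Serpinh1 and Tyms. They held the 2 lowest of Acaca, Acot2, Atp5c1, Cep70, Cirbp, Cyp2f2, Eno3, Fbxo44, Fmo1, Gm11837, Hnrnpu, Ift81, Immp2l, Lama1, Mccc2, Skil, Sugct and Tafa5. Without the 2 mice each of these genes kept its direction and lost its call. That loss was not particular to them: 51 of the 60 called genes named by rule lost the call. The probe count fell from 892 to 26 in this setting, which also leaves fewer mice.

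**Figure D3:**
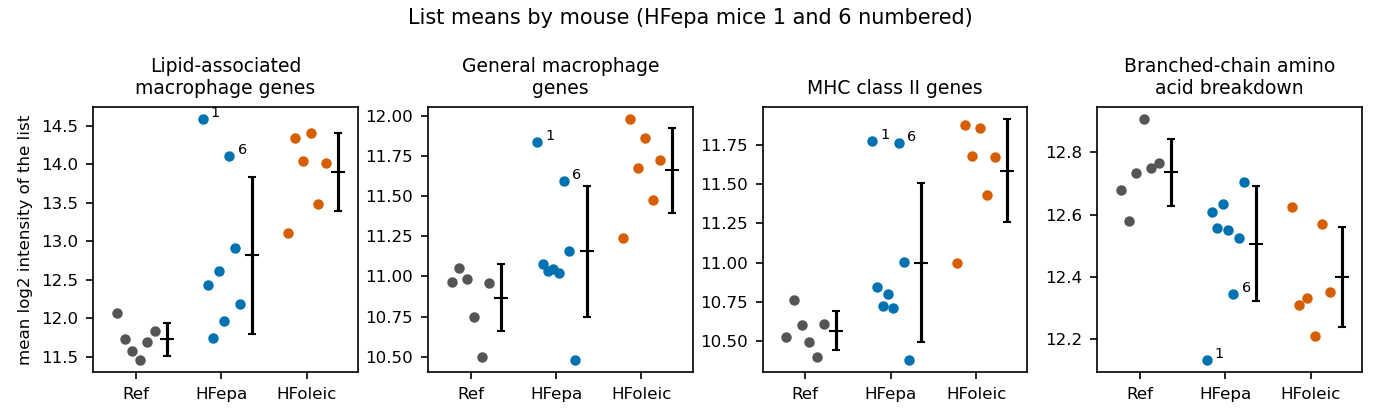
Mean log2 intensity over the genes of 4 lists in each mouse, with group means and SD in black and HFepa mice 1 and 6 numbered. In the lipid-associated macrophage list these mice lie at 14.58 and 14.11, above the other HFepa mice, and in the branched-chain amino acid list they are the lowest of the HFepa group.

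Few genes of mitochondrial fuel use passed. Of 28 genes that break down branched-chain amino acids, 27 had a negative estimate and the median was -0.26; only Mccc2, a subunit of the carboxylase of leucine breakdown, passed. Mccc2 separated the groups, with 11.71, 11.85 and 11.97 in Ref and 11.05, 11.43 and 11.71 in HFepa mice, a difference of -0.43 ± 0.10 (SE, adjusted p = 0.029). Its 2 dimmer probes did not pass, at -0.29 (adjusted p = 0.244) and -0.10 (adjusted p = 0.543). Bcat2, the transaminase that opens the pathway, had -0.48 (adjusted p = 0.0532), and Bckdhb, of the branched-chain dehydrogenase, had -0.32 (adjusted p = 0.126). In HFoleic vs. Ref 20 of the 28 fell, with a median of -0.47. The list mean was lowest in HFepa mice 1 and 6, at 12.13 and 12.35, and between 12.52 and 12.71 in the other 6, beside 12.58 to 12.91 in Ref mice. Without mice 1 and 6 the median change was -0.16. Within HFepa the adipocyte list mean was also lowest in mice 1 and 6, at 15.04 and 15.235. It was between 15.34 and 15.50 in the other 6 HFepa mice and between 15.22 and 15.63 in Ref mice. The part of this in the mitochondrial values was not tested. Of 76 respiratory chain genes, 71 had a negative estimate with a median of -0.12, and 1 passed, the ATP synthase subunit Atp5c1 at -0.37 (adjusted p = 0.0411), a call lost in 18 of 34 alternative settings. That is 1.32% of the list, below the 1.42% of all genes; the median was -0.02, -0.25 and -0.08 on the 3 slides and -0.07 without HFepa mice 1 and 6. Of 28 genes of the TCA cycle and pyruvate entry, Pdk1, a kinase that shuts pyruvate dehydrogenase, fell by 0.44 ± 0.08 (SE, adjusted p = 0.0158) with no overlap between groups, and the median was -0.18, or -0.11 without these mice.

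Calls among lipid genes were few and went both ways. Acaca, the carboxylase that commits acetyl-CoA to fatty acid synthesis, fell by 0.81 ± 0.19 (SE, adjusted p = 0.036), from 14.83, 15.20 and 15.51 in Ref to 13.76, 14.38 and 15.19 in HFepa mice, and was the only one of 19 lipogenic genes to pass; fatty acid synthase, Fasn, had -0.52 (adjusted p = 0.132) and the desaturase Scd1 -0.18 (adjusted p = 0.276). Of 6 dimmer Acaca probes 3 passed, at -0.78, -0.63 and -0.59, and 3 did not, at -0.68, -0.70 and 0.01. Among 28 genes of fatty acid uptake and triglyceride synthesis Fabp5 and Acsl5, an acyl-CoA synthetase, rose, Acsl5 by 0.27 ± 0.07 (SE, adjusted p = 0.0497), a call lost in 24 of 34 alternative settings. Acot2, a mitochondrial acyl-CoA thioesterase, was the only one of 31 fatty acid oxidation genes to pass and fell by 0.60 ± 0.14 (SE, adjusted p = 0.0311). None of 24 lipolysis and 15 lipid droplet genes passed; Abhd5, the co-activator of the fat cell's triglyceride lipase, had -0.61 (adjusted p = 0.0528), and Hilpda, a lipase inhibitor, -0.64 (adjusted p = 0.068). In cholesterol synthesis 1 of 25 rose, Hsd17b7 by 0.41 ± 0.09 (SE, adjusted p = 0.0318), beside 15 rises in HFoleic. Of 15 genes of polyunsaturated fatty acid synthesis none passed, the desaturase Fads1 being at -0.49 (adjusted p = 0.057), and of 35 eicosanoid genes none did, Ephx1 being at 0.62 (adjusted p = 0.0501).

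Signalling and glucose genes gave isolated calls. Deptor, an inhibitor bound to mTOR, rose by 0.54 ± 0.11 (SE, adjusted p = 0.0217), and Pik3cb, a catalytic subunit of PI3 kinase, fell by 0.63 ± 0.14 (SE, adjusted p = 0.0281), the other 36 genes of insulin, PI3 kinase and mTOR signalling not passing. In glycolysis the regulatory kinase Pfkfb4 rose by 1.02 ± 0.27 (SE, adjusted p = 0.0469) and the enolase Eno3 fell by 0.43 ± 0.10 (SE, adjusted p = 0.0335). The highest HFepa values of Pfkfb4, 11.997 and 11.721, were in mice 1 and 6, and without them its difference was 0.80. Of 34 alternative settings, the call was lost in 26 for Pfkfb4, 23 for Slc4a1, 23 for Hnrnpu and 20 for Arntl, the last 3 described next. The clock activator Arntl (BMAL1) fell by 0.54 ± 0.14 (SE, adjusted p = 0.0439), the only one of 20 clock genes to pass, while its 2 dimmer probes did not, at -0.39 and -0.23. Eif2ak3, the stress kinase PERK, rose by 0.22 ± 0.05 (SE, adjusted p = 0.0239). Of 41 splicing genes 2 fell, the cold-inducible RNA-binding protein Cirbp by 0.72 ± 0.17 (SE, adjusted p = 0.0331) and Hnrnpu by 0.41 ± 0.11 (SE, adjusted p = 0.046), though 2 other Hnrnpu probes gave -0.11 and -0.08 and did not pass. In the cell cycle list, 24 of 26 genes had positive estimates and the median was 0.50. HFepa mice 1 and 6 had the highest means of this list among the 14 mice, at 9.78 and 9.48 beside 9.21 in the next, and without them the median change was 0.30. Tyms, which makes thymidylate for DNA, rose by 0.53 ± 0.10 (SE, adjusted p = 0.0146) without overlap, and Mcm7, of the replicative helicase, fell by 0.31 ± 0.07 (SE, adjusted p = 0.036). The 6 red cell genes measured all had negative estimates with a median of -0.39, and Slc4a1, the band 3 anion exchanger, fell by 0.82 ± 0.21 (SE, adjusted p = 0.0436); the share of blood in these samples was not tested.

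Further called genes had dimmer probes that did not pass. Among the genes that rose, these gave 0.11 for Map1a, 0.20 for Optc, 0.46 for Kiss1r, 0.42 for Tnc, 0.32 for Serpinh1, 0.28 for P4ha1, 0.04 for Plod2 and 0.21 for Cavin1. They further gave -0.11 for Acsl5, 0.03 for Deptor, 0.02 for Eif2ak3, 0.02 for Hsd17b7 and 0.06 for Tyms, of which that of Acsl5 had the opposite sign to its brightest probe. Among the genes that fell, the probes that did not pass gave -0.25 for Fmo1, -0.40 for Echdc3, -0.39 and -0.19 for Fbxo44, -0.30 and -0.31 for Skil, -0.13 for Lrp3 and -0.29 for Cep70, and -0.16, -0.35 and -0.20 for Pdk1, -0.41 for Pik3cb and -0.10 for Mcm7. Other dimmer probes of some of these genes passed, at -0.52 for Pdk1, -0.64 and -0.37 for Fmo1, -0.59 for Cep70, 0.41 for Deptor, 0.34 for Hsd17b7 and 0.43 for Tyms.

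Many lists of other cell types and functions held no called gene. The medians were -0.09 over 27 adipogenic regulators, -0.07 over 19 adipokines, -0.10 over 27 antioxidant genes, 0.13 over 18 angiogenic factors and -0.06 over 17 genes of cholesterol efflux. For cell types they were -0.03 over 17 endothelial, -0.05 over 20 progenitor and fibroblast, -0.04 over 13 mesothelial, -0.16 over 10 Schwann cell and nerve and 0.32 over 7 dendritic cell genes. The 25 interferon-stimulated genes had a median of 0.12. Markers of other tissues had medians of 0.57 over 11 liver, -0.02 over 11 skeletal muscle, -0.17 over 8 lymph node, -0.09 over 6 pancreas and -0.18 over 8 testis genes. Among 24 genes of the cytoskeleton and Dock family Dock8 alone passed, with a median of 0.34, or 0.14 without HFepa mice 1 and 6. The liver median ran from 0.10 without Ref mouse 4 to 1.17 without Ref mice 3 and 6 and HFepa mouse 2 together, and the mesothelial, skeletal muscle, progenitor and fibroblast, endothelial, cholesterol efflux, epididymal and testis medians changed sign under at least 1 alternative. Over all 25587 genes the median was -0.02.

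**Figure D4:**
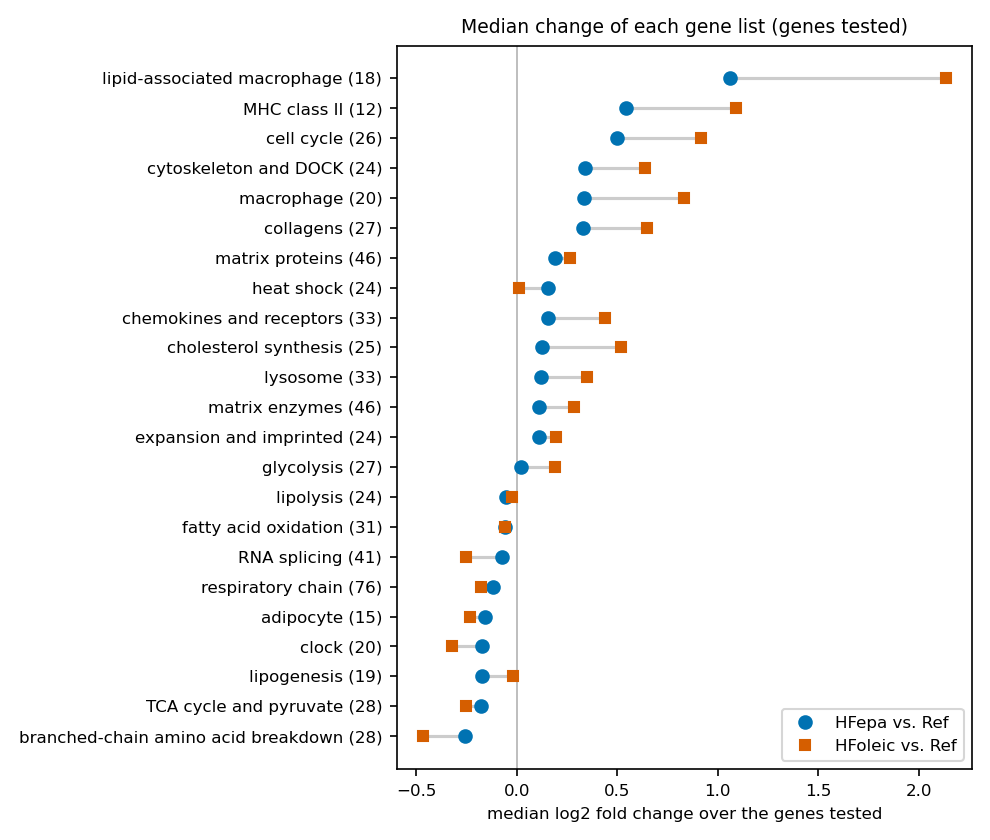
Median log2 fold change over the genes tested in 23 lists (number tested in brackets) for HFepa vs. Ref and HFoleic vs. Ref, which share their Ref mice. The HFepa median of the lipid-associated macrophage list is 1.06 beside 2.14, and that of the heat-shock list is 0.16 beside 0.01.

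Host genes of small nucleolar RNAs formed a group of falls among the long noncoding RNAs. These spliced transcripts carry in their introns the snoRNAs that guide modification of ribosomal RNA. The family was picked after its values were seen. Of 18 host genes measured, 5 fell and none rose, and 16 had a negative estimate with a median of -0.35; in HFoleic vs. Ref 13 fell and the median was -0.51. The 60-base array probes of the 5 are shown because they fix which part of each transcript was read, and no part is in capitals. Their positions (mm9) are chr9:88415923-88415982 for Snhg5, chr17:24856476-24856535 for Snhg9, chr12:106268866-106268925 for Snhg10, chr15:32170363-32170422 for Snhg18 and, across a splice junction, chr2:166889193-166890683 for Zfas1:
Snhg5: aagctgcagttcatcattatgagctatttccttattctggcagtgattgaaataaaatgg
Snhg9: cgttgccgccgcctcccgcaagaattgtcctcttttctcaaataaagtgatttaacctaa
Snhg10: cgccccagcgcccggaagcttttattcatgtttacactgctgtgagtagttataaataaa
Snhg18: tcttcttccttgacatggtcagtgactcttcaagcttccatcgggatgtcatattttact
Zfas1: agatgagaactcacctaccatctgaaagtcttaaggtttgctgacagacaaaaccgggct

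Snhg5 changed most, from 11.78, 12.61 and 12.79 in Ref to 11.11, 11.70 and 12.04 in HFepa mice, a difference of -0.80 ± 0.17 (SE, adjusted p = 0.0268). Snhg10 separated the groups, at 10.28, 10.40 and 10.53 and 9.53, 9.92 and 10.28, a difference of -0.49 ± 0.10 (SE, adjusted p = 0.0213). Snhg9 and Snhg18 also separated them, with differences of -0.38 ± 0.07 (SE, adjusted p = 0.0176) and -0.32 ± 0.07 (SE, adjusted p = 0.0244). Zfas1 differed by -0.40 ± 0.09 (SE, adjusted p = 0.0255) with some overlap. Gas5, a much studied member, had -0.07 (adjusted p = 0.497), and Snhg12 and Snhg1 had -0.50 (adjusted p = 0.0697) and -0.49 (adjusted p = 0.0587). The lowest HFepa mice for Snhg5 were mice 1 and 6, at 11.11 and 11.22, and also for Snhg9, Snhg10, Snhg18 and Snhg12. Without them 0 of the 18 passed by limma (11 lower at an unadjusted p under 0.05), 16 had a negative estimate, the median was -0.26, and Snhg5 was at -0.64 (adjusted p = 0.112). Of 34 alternative settings, the call was lost in 9 for Snhg5, 8 for Zfas1, 7 for Snhg10, 7 for Snhg18 and 3 for Snhg9. The count of falls was 1 without Ref mouse 3, Ref mouse 6 or HFepa mouse 6, 3 without Ref mouse 5, 9 without Ref mouse 7 and 10 without HFepa mouse 3. It was 1 with HFepa and Ref arrays alone, and 0 without Ref mice 3 and 6 and HFepa mouse 2, where 10 were lower at an unadjusted p under 0.05.

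**Figure D5:**
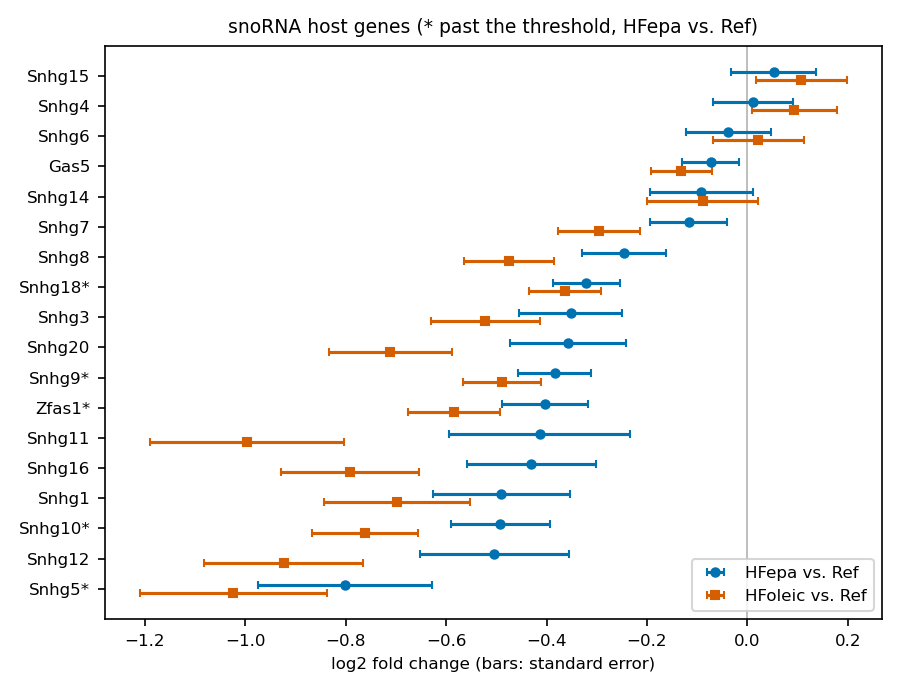
Log2 fold change of 18 snoRNA host genes with its standard error in HFepa vs. Ref and in HFoleic vs. Ref, which share their Ref mice; asterisks mark the 5 genes past the threshold in HFepa. Snhg5 has the lowest HFepa value, -0.80.

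The genes with the largest differences between HFoleic and Ref were chosen for that size, so smaller estimates in HFepa vs. Ref are a description and no comparison. Cyp2f2 and Lama1, which passed in HFepa, are given above. Mmp12, a macrophage elastase, had 5.24 in HFoleic vs. Ref and 2.88 (adjusted p = 0.0746) in HFepa vs. Ref; its HFepa mice ran from 6.35 to 13.76. Vsig8 had 5.41 and 2.82 (adjusted p = 0.0732), Atp6v0d2, a subunit of the proton pump of lysosomes, 4.66 and 2.35 (adjusted p = 0.0821), and the acute-phase gene Saa3 4.81 and 2.07 (adjusted p = 0.167). Downward, Acsm3, an acyl-CoA synthetase of medium-chain acids, had -3.62 and -2.09 (adjusted p = 0.0676). Acsm3 had no overlap between HFepa and Ref mice, at 7.46, 10.80 and 11.11 and 11.31, 12.35 and 12.47, and still missed the threshold. The direct HFepa vs. HFoleic contrasts of these genes did not pass, with adjusted p values of 0.148 for Mmp12, 0.131 for Vsig8, 0.128 for Atp6v0d2, 0.126 for Saa3 and 0.168 for Acsm3. HFepa mice 1 and 6 had the highest HFepa values of Mmp12, Vsig8, Atp6v0d2 and Saa3 and the lowest of Acsm3. Without them the differences from Ref were 1.80 for Mmp12, 1.57 for Vsig8, 1.30 for Atp6v0d2, 1.13 for Saa3 and -1.36 for Acsm3. Among 11 genes taken to RT-qPCR, a list chosen on these same samples and so no independent evidence of a direction, Dock8 alone passed in HFepa at its brightest probe. Nupl2, of the nuclear pore, had -0.09 (adjusted p = 0.451) at its brightest probe, while 1 of its 3 dimmer probes passed at -0.33 (adjusted p = 0.0158) and the others had -0.10 and -0.04. Irs2, an insulin receptor substrate, had -0.36 (adjusted p = 0.27) in HFepa and -0.99 in HFoleic.

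Set directly against each other, HFepa and HFoleic differed past the threshold at 1 probe and at no gene's brightest probe, the smallest adjusted p of which was 0.117, while 8101 probes were below an unadjusted limma p of 0.05. That probe reads Anxa6, a calcium-dependent membrane-binding annexin, at chr11:54804707-54804766 (mm9). Its HFepa mice had a lowest, median and highest value of 10.59, 10.77 and 10.91 and its HFoleic mice of 10.22, 10.27 and 10.53, so the groups did not overlap, and the difference was 0.43 ± 0.06 (SE, adjusted p = 0.0327). Relative to Ref mice this Anxa6 probe had 0.20 in HFepa (adjusted p = 0.0814) and -0.23 in HFoleic (adjusted p = 0.011). The count for HFepa vs. HFoleic depended on single mice: it was 2851 probes without HFepa mouse 1, 1664 without HFoleic mouse 1 and between 0 and 2 without any other single mouse, and 1297 with the slide as a block.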

How the data were processed

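Epididymal fat RNA of each mouse was labelled with Cy3 and hybridized to 1-colour Agilent mouse arrays with 62976 spots. Per the file headers and the submitters' notes, the deposited scanner files hold each spot's median and mean intensity, local background and processed signal from Agilent Feature Extraction 10.10.1.1; the authors' own table holds quantile-normalized log2 values, which correlated with the values used here on every array (lowest r = 0.99998) and served as an alternative. The deposited log2 table lists 38168 probes.

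Following the study's methods, the median intensity was log2-transformed without background correction and quantile-normalized. Control spots were left out, spots marked as outliers were set missing (24 probe values stayed missing), and a probe was kept when well above background on at least 6 arrays, which left 39390 probes. The authors' filter is not given in the sources used here. No spot was saturated, between 66.1% and 71.9% of spots per array were well above background, and the number of arrays limits the precision. limma 3.58.1 (R 4.3.3) fitted the 3 groups on all 20 arrays, with Benjamini–Hochberg adjustment over all probes and a threshold of 0.05; the fit was tested on simulated data.

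A gene is represented by its brightest probe. Of 25618 names in the files, 17573 matched RefSeq symbols (GRCm38.p6) directly and 810 through a synonym. Probe positions are those of the files (mm9). Named genes were the 12 largest called rises and falls without overlap among protein-coding genes, the called or lowest-p members of each list, the 6 largest rises and falls in HFoleic and the 11 RT-qPCR genes; further members of the lists, and the snoRNA hosts, were named after their values were seen. Some genes that the rule names are not reported here. Members, 55 lists and tests were chosen with earlier results of these data known. The arrays lay on 3 slides, each with all groups. The labels do not say whether replicate numbers pair mice, and they were used as names only. Deviations of same-numbered HFepa and Ref mice correlated between -0.43 and 0.15. HFepa and HFoleic mice, which the paper describes as matched for body weight, were not examined in this way, so a pairing is not excluded. P-values measure the spread between mice within groups, pooled over the 3 groups, HFoleic included. They do not measure a spread between lineages. Alternatives were other backgrounds, normalizations, filters, blocks, weights and sets of arrays.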

Additional observations from a re-analysis of the deposited data

Results flagged for a closer look

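In 7 of 140 sets of mice examined (70 genes in the 2 groups), 1 mouse lay far from the rest of its group; chance alone flags about 1 in 20. Ref mouse 5 was below the other Ref mice for Abat, at 12.19 with the nearest at 12.80, and for Atp2a3, at 9.65 with the nearest at 10.21, and it was above them for Cyp2f2, at 14.02 with the nearest at 11.69. HFepa mouse 8 was above its group for Atp2a3, at 11.37 with the nearest at 10.92. HFepa mouse 3 was below its group for Cryab, at 13.21 with the nearest at 14.11, and for Sfrp5, at 14.43 with the nearest at 15.60, and above it for Arntl, at 9.71 with the nearest at 9.27. Without HFepa mouse 3 the difference of Sfrp5 from Ref was 1.70 and that of Cryab 0.86. Without Ref mouse 5 the difference of Cyp2f2 was -1.82, that of Abat 0.68 and that of Atp2a3 0.59.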

How the results depend on the processing

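The 60 called genes named by rule kept their direction under all 34 alternatives, with estimates between 0.66 and 2.06 times the main ones, and on each of the 3 slides. These genes were chosen for passing in the same arrays, so a kept direction is a description and no independent support. Their calls were less stable: 60 held with the authors' table, 44 with the slide as a block, 18 with HFepa and Ref arrays alone, 9 without HFepa mice 1 and 6 and 0 without Ref mice 3 and 6 and HFepa mouse 2. Dock8, Map1a, Adh4, Eda2r and Igfbp5 lost the call only in the last case. Among the named genes that did not pass, Mmp13 turned from 0.19 to -0.039 without HFepa mice 1 and 6. List medians near 0 changed sign in up to 11 of 35 alternatives (eicosanoid genes), in 8 for the mesothelial and in 7 for the complement and skeletal muscle lists. The alternatives without several mice were chosen after seeing the data.

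The count of 892 probes for HFepa vs. Ref (378 higher, 514 lower) became 575 (232 higher) with median centring, 583 (250 and 333) without the filter on dim probes, 1459 (571 and 888) with array weights and 140 (64 and 76) with HFepa and Ref arrays alone. It became 26 (16 and 10) without HFepa mice 1 and 6 and 0 (0 and 0) without Ref mice 3 and 6 and HFepa mouse 2; both leave fewer samples. Leaving out 1 mouse gave 131 to 2518 (52 to 1177 higher, 79 to 1341 lower). The labels do not say whether the replicate numbers pair mice. With them as a replicate block 25 probes were called (16 and 9), 0 for HFepa vs. HFoleic and 7873 of 12147 for HFoleic vs. Ref.

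For HFepa vs. HFoleic the 1 called probe became 0 with the processed signal, with normexp and with median centring, 1297 with the slide as a block and 4575 with array weights. Leaving out 1 mouse gave 0 to 2851, the highest without HFepa mouse 1, and 1664 without HFoleic mouse 1. For HFoleic vs. Ref, leaving out 1 mouse gave 9820 to 13178. The causes of these shifts were not tested, and some of the alternatives also leave fewer samples or probes.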

Other observations

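Brown-fat genes stood out in 1 HFepa mouse and were noticed after the values were seen. In HFepa mouse 7, Ucp1 was at 12.40, Cidea at 14.01 and Elovl3 at 7.92, whereas in the other 7 HFepa mice they reached at most 6.23, 10.71 and 6.67. Ref mouse 5 had the highest Cidea of its group, at 12.57, with Ucp1 at 5.52. The thermogenic list as a whole had a median change of 0.25 over 17 genes with none past the threshold.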
